A study of Mus musculus with 16 samples.

Results

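The comparison described here is that of malnourished mice with and without oral exposure to bacteria. Its members are 12 of the 16 RNA-Seq libraries of the series, 7 labelled MAL-BG and 5 labelled MAL, taken by the group named in each column of the deposited counts. Every library was made from poly(A) RNA of CD11b+ cells that beads had pulled from dissociated C57BL/6J mouse brain. MAL mice were weaned onto an isocaloric diet low in protein and fat and kept on it for about a month. MAL-BG mice ate the same diet and were also gavaged repeatedly with a mixture of E. coli and Bacteroidales species, so the comparison asks what the bacteria changed when diet was held constant. Mice without the bacteria were given buffer by gavage according to the Methods. The 4 remaining libraries (CON) come from mice on standard chow and serve only as a reference level. The bacteria were given as 1 mixture, so the effect of any single species cannot be told apart, and no group of the series received the bacteria on standard chow. Of 24421 rows in the table, 14565 genes were tested, those whose count exceeded 10 in 4 or more of the 16 libraries. The columns name no animal, so p-values measure the spread between these libraries.

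CD11b is an integrin chain on the surface of microglia, the resident macrophages of the brain, and of blood cells such as monocytes, neutrophils, and natural killer cells. In the healthy brain, microglia survey synapses, engulf debris, and digest it in lysosomes, and they carry receptors for bacterial products. Isolation with magnetic beads enriches such cells without purifying them, and enzymatic dissociation itself is known to switch on early response genes within cells. The labels name cortical tissue as the source and the Methods name whole cerebra. In bulk RNA, fewer cells of a type and less RNA per cell cannot be told apart.

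Library totals were 10864121 to 12819982 counts in MAL and 14191791 to 18705202 counts in MAL-BG, without overlap (two-sided exact permutation test over 792 splits, p = 0.00253). The 50 most abundant genes held 17.3 to 19.7% of the counts in MAL and 19.1 to 22.4% in MAL-BG (exact permutation test, p = 0.00884). Values below are CPM (counts scaled to a common library size, here corrected by the TMM method), and the 5 MAL values are given in the order of libraries 1 to 5. Changes are log2 fold changes of MAL-BG over MAL, and their SE and Benjamini-Hochberg adjusted p come from the quasi-likelihood test of edgeR. DEGs are genes past 2 thresholds, 0.05 for the adjusted p and 0.58 for the size of the log2 fold change (1.5-fold). Of the markers of homeostatic microglia 18 were tested, with a summed level of 24266 to 39794 CPM in MAL (median 29611) and 46374 to 65231 CPM in MAL-BG (median 57392). Markers of choroid plexus epithelium summed to 6940.3 to 44745 CPM in MAL, so transcripts of other brain cells were present. MAL library 4 and MAL-BG libraries 3 and 5 had the marker sums farthest from their groups, and results that rest on them are also given without them, an alternative added after seeing the data.

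The change was broad. With the bacteria 10.2% of the genes were higher (1479) and 20.2% lower (2944), so that 30.4% (4423) changed. Counts of rises and falls in the gene lists below are to be read against these shares. DEGs that fell had larger changes than those that rose, with a median size of 1.45 against 0.80 on the log2 scale. A change above 2 on the log2 scale was reached by 819 lower and 53 higher genes. Falls were most frequent among weakly expressed genes, where 39.5% of genes at 1 to 5 CPM and 7.16% of genes at 100 CPM or more were lower. Rises were most frequent at high levels, with 2.33% of genes under 1 CPM and 19.2% at 100 CPM or more. In 1145 genes (7.86%) all 7 MAL-BG libraries lay above all 5 MAL libraries, and in 1304 genes (8.95%) all 7 lay below.

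**Figure D1:**
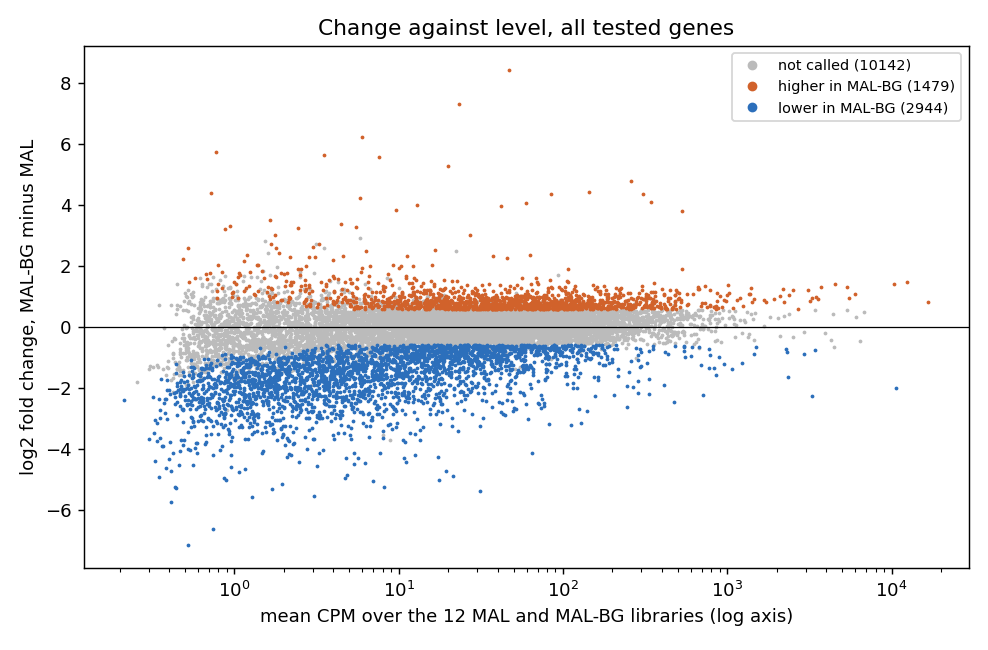
Each point is 1 of the 14565 tested genes, with its mean CPM over the 12 MAL and MAL-BG libraries on a log axis and its log2 fold change (MAL-BG minus MAL) on the vertical axis. Rises take up a larger share of genes toward high levels (19.2% at 100 CPM or more), and falls reach further from 0 and take up a larger share at low levels (39.5% at 1 to 5 CPM).

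These values are relative to the total RNA of a library, and the split between rises and falls depends on how libraries were scaled. With libraries set to an equal mean log2 CPM over genes, the median change of all genes moved from -0.03 to 0.24, and 3501 genes were higher and 2132 lower. With libraries scaled by totals only, the median was -0.16, with 872 higher and 3471 lower. Scaled to the total of the homeostatic microglia markers, which took a larger share of MAL-BG libraries, the median was -0.92, with 51 higher and 9903 lower. A rise below is a rise per total RNA of the library.

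The core markers of microglia took a larger share of the MAL-BG libraries. Of 18 tested members of the homeostatic list, 10 rose and 0 fell, with a median of 0.67. Cx3cr1, the receptor for the neuronal chemokine fractalkine, had 3657, 3054, 2695, 5489.8, and 3148 CPM in MAL and 4613 to 11430.0 (median 8139) CPM in MAL-BG. MAL-BG library 5 lay below MAL library 4, the highest MAL library, and the change was 1.10 ± 0.25 (SE, adjusted p = 0.0022, groups overlapping). Tmem119, a membrane protein that separates microglia from blood-derived macrophages, had 1456, 1324, 1028, 1577, and 1221 CPM in MAL and 1578 to 3249 (median 2625) CPM in MAL-BG, a change of 1.01 ± 0.19 (SE, adjusted p = 0.000613, groups apart).

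Not every marker of the same cells moved with these 2. Csf1r, the receptor on which microglia depend for survival, had 5697, 4618, 4128, 6575, and 5220.0 CPM in MAL and 3445 to 9889 (median 5422) CPM in MAL-BG, and MAL-BG libraries lay on both sides of the MAL range. Its log2 fold change was 0.33 ± 0.24 (SE, adjusted p = 0.266). P2ry12, the purine receptor that steers microglial processes, spread over 909.8 to 3825 CPM in MAL-BG against 1461 to 2085 CPM in MAL (log2 fold change 0.30 ± 0.27, SE, adjusted p = 0.382, groups overlapping). Both receptors spread more widely among the 7 MAL-BG libraries than among the 5 MAL libraries.

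**Figure D2:**
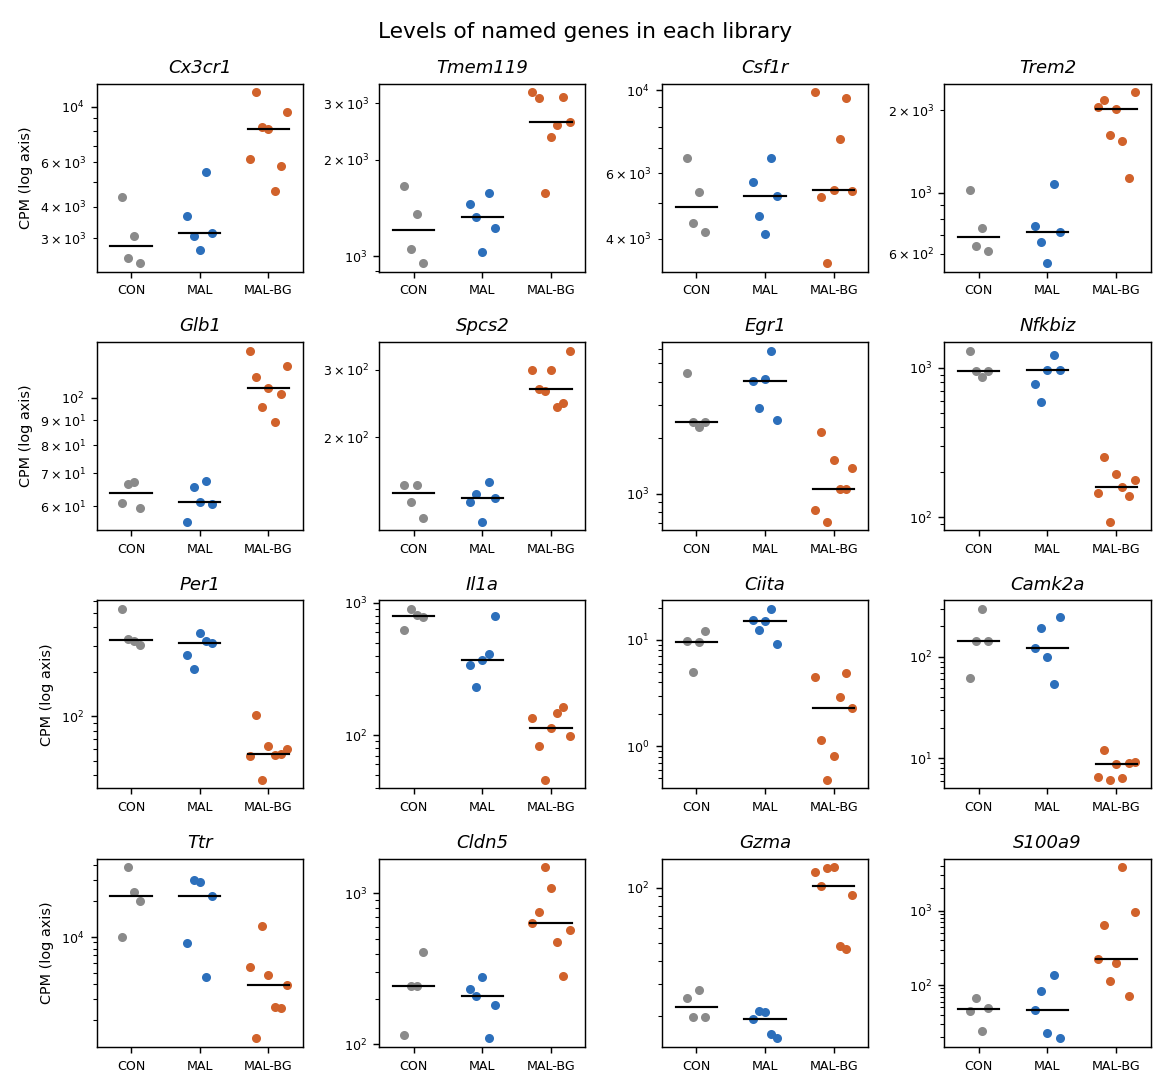
CPM of 16 named genes in each library, 1 point per library and a line at the group median, on log axes with CON, MAL, and MAL-BG side by side. Tmem119, Trem2, Glb1, Spcs2, Cldn5, and Gzma sit above the MAL range in all 7 MAL-BG libraries, Egr1, Nfkbiz, Per1, Il1a, Ciita, and Camk2a sit below it, and Cx3cr1, Csf1r, Ttr, and S100a9 overlap.

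In the lysosome list, 15 of 30 members rose and 0 fell, with a median of 0.57, where 10.2% of all genes rose. Scaled to the homeostatic microglia markers, 0 members were higher and 7 lower, with a median of -0.32 against -0.92 for all genes. Cst3, the secreted cathepsin inhibitor cystatin C and the most abundant member, had 11368, 11055, 9379.5, 13804, and 12543 CPM in MAL and 15488 to 24913 (median 20499) CPM in MAL-BG. The groups were apart, with a log2 fold change of 0.81 ± 0.16 (SE, adjusted p = 0.00104). The smallest p of the list was that of Glb1, lysosomal beta-galactosidase, at 55.8, 65.5, 61.2, 67.4, and 60.6 CPM in MAL and 89.1 to 125 (median 104.7) CPM in MAL-BG (0.77 ± 0.09, SE, adjusted p = 2.38e-05, groups apart). In 13 of the 15 members that rose, no MAL-BG library overlapped the MAL range. Among these 13, the asparaginyl protease Lgmn changed by 1.41 and the lysosomal growth factor Grn by 1.23.

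Engulfment genes were called in both directions, as were genes at large. Of 22 tested, 4 rose and 3 fell, with a median of 0.24, where 10.2% of all genes rose and 20.2% fell. Pros1, the bridging protein that links phosphatidylserine on dying cells to engulfment receptors, had 283, 216, 202, 329.8, and 244 CPM in MAL and 430.5 to 619.9 (median 526) CPM in MAL-BG (1.04 ± 0.15, SE, adjusted p = 8.74e-05, groups apart). Lilrb4a, an inhibitory receptor of myeloid cells, moved the other way, from 30.9, 23.9, 28.0, 39.1, and 27.2 CPM in MAL to 4.05 to 18.3 (median 8.27) CPM in MAL-BG (-1.80 ± 0.29, SE, adjusted p = 0.000177, groups apart), and its family has close paralogs that may share reads. The scavenger receptor Cd36 changed by -0.74. The fit without MAL-BG library 5 and the fit without MAL-BG library 6 each had 5 members lower, library totals gave 3 higher and 5 lower, and an equal mean log2 CPM gave 9 higher and 1 lower. In the complement list, 3 of 16 rose and 2 fell, with a median of 0.06, and with the 3 libraries left out 4 fell. The 3 that rose were the chains of C1q, and those that fell were Cfb at -0.77, a protease of the alternative pathway whose call was lost without MAL-BG library 4, and Cd55 at -1.48, a regulator that breaks up complement convertases.

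Of the 5 rises with the smallest p among all fully separated genes above 5 CPM, 3 coded for proteins of the membrane of the endoplasmic reticulum. Spcs2 (on chromosome 7 from 99837569 to 99870340, GRCm38), a subunit of signal peptidase, had 136, 142, 120.1, 152, and 139 CPM in MAL and 240.0 to 337 (median 267) CPM in MAL-BG (1.02 ± 0.10, SE, adjusted p = 8.26e-06, groups apart). Emc3, a subunit of the membrane protein insertase EMC, had 81.7, 81.9, 72.6, 84.8, and 80.9 CPM in MAL and 125 to 163 (median 145) CPM in MAL-BG (0.83 ± 0.08, SE, adjusted p = 7.88e-06, groups apart). Tmco1, a calcium channel of the same membrane, had 71.0, 76.5, 69.9, 77.1, and 67.6 CPM in MAL and 122 to 149.5 (median 134) CPM in MAL-BG (0.88 ± 0.09, SE, adjusted p = 6.42e-06, groups apart). Separation of the groups was a condition of this choice, and the smallest p favors levels that are tight within each group. The other 2 were Cd34, a surface sialomucin, at 1.202 ± 0.12 (SE), and Dirc2, a transporter of the lysosomal membrane, at 0.94 ± 0.10 (SE). A further list, of the entry of proteins into the endoplasmic reticulum, was added after the values were seen. It includes Spcs2, Emc3, and Tmco1, which count among its rises. In it 14 of 28 rose and 1 fell, with a median of 0.56, where 10.2% of all genes rose and 20.2% fell. These counts describe the list and are no separate evidence. The member that fell was Emc4, another EMC subunit (-0.81 ± 0.21, SE, adjusted p = 0.00531, groups overlapping). Of the other EMC subunits, Emc1, Emc6, and Emc10 rose, and Emc2, Emc7, and Emc8 were not called.

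In the list of N-glycosylation, which covers the enzymes that build and transfer glycans in the endoplasmic reticulum, 12 of 25 rose and 1 fell, with a median of 0.55. Scaled to the homeostatic microglia markers, 0 were higher and 8 lower (median -0.35). Rpn1, a subunit of the oligosaccharyltransferase, had 165, 207, 176, 188, and 172 CPM in MAL and 243 to 459 (median 379.5) CPM in MAL-BG (0.98 ± 0.15, SE, adjusted p = 0.000117, groups apart). Dpagt1, the enzyme of the first step of glycan assembly, had 36.1, 31.1, 30.3, 37.2, and 28.0 CPM in MAL and 54.8 to 70.9 (median 68.3) CPM in MAL-BG (1.02 ± 0.12, SE, adjusted p = 2.36e-05, groups apart). The member that fell was Tusc3 (-0.96 ± 0.25, SE, adjusted p = 0.0059, groups overlapping), an oxidoreductase subunit of the same complex.

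Genes of antigen presentation were called in both directions. In the MHC class I list, 8 of 15 rose and 2 fell, with a median of 0.63. With libraries scaled by totals 3 rose and 2 fell, and with offsets for transcript length and GC content in each library 5 rose and 1 fell. Scaled to the homeostatic microglia markers, 0 were higher and 5 lower (median -0.27). Tapbp, the tapasin chaperone that loads peptides onto class I molecules, had 271, 258, 237, 344, and 257 CPM in MAL and 414 to 780.1 (median 704) CPM in MAL-BG (1.22 ± 0.17, SE, adjusted p = 5.81e-05, groups apart). Nlrc5, the transactivator of class I genes, fell from 34.5, 25.7, 30.3, 27.2, and 31.3 CPM in MAL to 12.7 to 20.1 (median 14.8) CPM in MAL-BG (-0.93 ± 0.15, SE, adjusted p = 0.000167, groups apart). B2m, the light chain shared by class I molecules, had 1297, 1122, 1090.2, 1638, and 1338 CPM in MAL and 971 to 2064 (median 1523) CPM in MAL-BG and was not called (0.25 ± 0.19, SE, adjusted p = 0.289, groups overlapping). The loading chaperone and the transactivator thus moved apart, each without overlap. The H2 genes of this list have close copies that may share reads.

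In the MHC class II list, 5 of 10 fell and 2 rose, with a median of -0.52. Ciita (on chromosome 16 from 10480014 to 10531064), the transactivator of class II genes, had 15.4, 12.5, 15.1, 19.6, and 9.24 CPM in MAL and 0.482 to 4.87 (median 2.30) CPM in MAL-BG (-2.55 ± 0.44, SE, adjusted p = 0.000314, groups apart). H2-Aa, a class II alpha chain, had 386, 483, 397, 841, and 289.8 CPM in MAL and 109 to 368 (median 233) CPM in MAL-BG (-1.17 ± 0.29, SE, adjusted p = 0.00429, groups overlapping), and MAL-BG library 1 lay inside the MAL range. Cd74, the invariant chain, was at the edge of the call (-0.73 ± 0.27, SE, adjusted p = 0.0387, groups overlapping). It was not called in 8 of the 16 fits that left out 1 library, those without MAL library 2, 3, or 4 or MAL-BG library 2, 3, 4, 5, or 7, and without MAL library 4 its change was -0.47. Leaving out MAL library 2 or MAL-BG library 2, 3, 4, 5, or 7 each gave 2 members higher and 3 lower. Without MAL library 4, or at an equal mean log2 CPM, 3 were higher and 3 lower, and against CON 3 were higher and 1 lower. The 2 that rose, H2-DMa and H2-Oa at 0.75 and 0.87, belong to the loading of class II molecules. These proteins are carried by border macrophages and dendritic cells more than by resting microglia, and in the border macrophage list 3 of 11 fell and 0 rose (median -0.45, and 0.04 without MAL library 4). Siglec1, a sialic acid receptor of such macrophages, fell from 23.3, 16.1, 21.2, 37.4, and 12.4 CPM in MAL to 2.93 to 10.3 (median 7.43) CPM in MAL-BG (-1.65 ± 0.36, SE, adjusted p = 0.00162, groups apart). The part of cell composition in the class II change was not tested.

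Inflammatory genes were called in both directions. Of 20 cytokines and chemokines tested, 5 fell and 3 rose, with a median of 0.04, where 20.2% of all genes fell and 10.2% rose. With the 3 libraries left out 6 rose and 4 fell. At an equal mean log2 CPM 6 rose and 5 fell. Il1a (on chromosome 2 from 129299609 to 129310186), an alarmin cytokine, had 337, 229.8, 372, 409, and 794 CPM in MAL and 45.8 to 162 (median 113) CPM in MAL-BG, with every MAL-BG library below the MAL range (-1.93 ± 0.29, SE, adjusted p = 0.000122). Tnf, a central inflammatory cytokine, had 125, 99.1, 121, 258, and 242 CPM in MAL and 26.7 to 99.99 (median 55.7) CPM in MAL-BG (-1.60 ± 0.28, SE, adjusted p = 0.000401, groups overlapping). Cxcl1 and Cxcl2, which attract neutrophils, changed by -2.26 and -2.09. Nfkbiz, an inhibitor-like partner of NF-kappaB that is itself induced by it, was among the 5 falls with the smallest p, from 785, 589, 970.5, 1212, and 967 CPM in MAL to 93.3 to 254 (median 159.7) CPM in MAL-BG (-2.45 ± 0.21, SE, adjusted p = 6.37e-06, groups apart).

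The 3 that rose were the chemokines Ccl3, Ccl4, and Ccl5. Ccl5, which attracts T cells and natural killer cells and is also made by them, had 8.68, 13.2, 15.7, 14.6, and 12.02 CPM in MAL and 22.3 to 47.6 (median 31.3) CPM in MAL-BG (1.31 ± 0.20, SE, adjusted p = 0.000147, groups apart). Ccl3 had 158, 153, 126, 346, and 222 CPM in MAL and 275 to 587 (median 454) CPM in MAL-BG (1.06 ± 0.26, SE, adjusted p = 0.00387, groups overlapping). Ccl4 lay near the threshold (0.89 ± 0.34, SE, adjusted p = 0.0414, groups overlapping) and lost its call in 9 of the 16 fits that left out 1 library, without CON library 3, MAL library 1, 2, 3, or 5, or MAL-BG library 1, 2, 4, or 7, with adjusted p up to 0.106. MAL library 4 was the highest MAL library for both.

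Of 28 genes for the sensing of bacteria, 5 fell and 1 rose (median -0.19), where 20.2% of all genes fell and 10.2% rose, and at an equal mean log2 CPM 2 fell and 2 rose. Tlr4, the receptor for endotoxin of bacteria such as E. coli, had 57.6, 47.0, 39.7, 58.1, and 45.5 CPM in MAL and 35.4 to 89.2 (median 45.5) CPM in MAL-BG (0.07 ± 0.21, SE, adjusted p = 0.802, groups overlapping). Cd14, its coreceptor, had 601, 539, 617, 1115, and 726 CPM in MAL and 233 to 617 (median 426) CPM in MAL-BG (-0.78 ± 0.23, SE, adjusted p = 0.0125, groups overlapping). Without MAL library 4 the change of Cd14 was -0.57, just under the fold threshold. Nlrc4, the inflammasome sensor of bacterial flagellin and secretion systems, fell from 5.79, 8.43, 5.94, 10.4, and 5.65 CPM in MAL to 1.34 to 2.76 (median 1.95) CPM in MAL-BG (-1.82 ± 0.28, SE, adjusted p = 0.000152, groups apart). Tlr8, an endosomal receptor for RNA, changed by -2.75. Tlr3, the endosomal receptor for double-stranded RNA, was the member that rose, from 67.0, 55.9, 53.5, 76.7, and 56.3 CPM in MAL to 82.1 to 128 (median 107) CPM in MAL-BG (0.81 ± 0.13, SE, adjusted p = 0.000154, groups apart).

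Interferon-stimulated genes gave no common direction, with 2 of 20 higher and 3 lower and a median of 0.06. Of all genes 10.2% were higher and 20.2% lower. Without MAL-BG library 6, 4 members were higher. At an equal mean log2 CPM 6 were higher and 1 lower. Stat2, a transcription factor of the interferon response, fell from 90.6, 74.9, 69.6, 78.3, and 79.0 CPM in MAL to 32.5 to 53.9 (median 44.4) CPM in MAL-BG (-0.83 ± 0.12, SE, adjusted p = 8.09e-05, groups apart). Bst2, a tether of enveloped viruses, rose (0.85 ± 0.25, SE, adjusted p = 0.0106, groups overlapping), with 80.5, 79.4, 82.1, 161, and 80.0 CPM in MAL and 94.8 to 241 (median 178) CPM in MAL-BG.

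Disease-associated microglia are a state described in neurodegeneration, with loss of homeostatic genes and gain of lipid and phagocytic genes. Of 19 genes of this state tested, 4 rose and 2 fell, while the median was -0.26. Library totals gave 4 higher and 4 lower, the offsets for length and GC content 2 higher and 4 lower, and an equal mean log2 CPM 7 higher and 2 lower. Trem2, the lipid receptor that the state requires, had 759, 661, 554, 1080.4, and 718 CPM in MAL and 1137 to 2331 (median 2020.4) CPM in MAL-BG (1.29 ± 0.21, SE, adjusted p = 0.000183, groups apart). Cd9, a tetraspanin, rose with it (0.79 ± 0.19, SE, adjusted p = 0.00293, groups overlapping). Csf1, the ligand of Csf1r, fell from 98.0, 73.5, 98.2, 108, and 175 CPM in MAL to 51.0 to 67.8 (median 54.0) CPM in MAL-BG (-0.98 ± 0.22, SE, adjusted p = 0.00191, groups apart). Apoe, the lipid carrier that leads the state, had 2158, 3408, 3018, 4750.4, and 2459.8 CPM in MAL and 1948 to 3927 (median 2817) CPM in MAL-BG, and its groups overlapped (-0.18 ± 0.21, SE, adjusted p = 0.51).

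**Figure D3:**
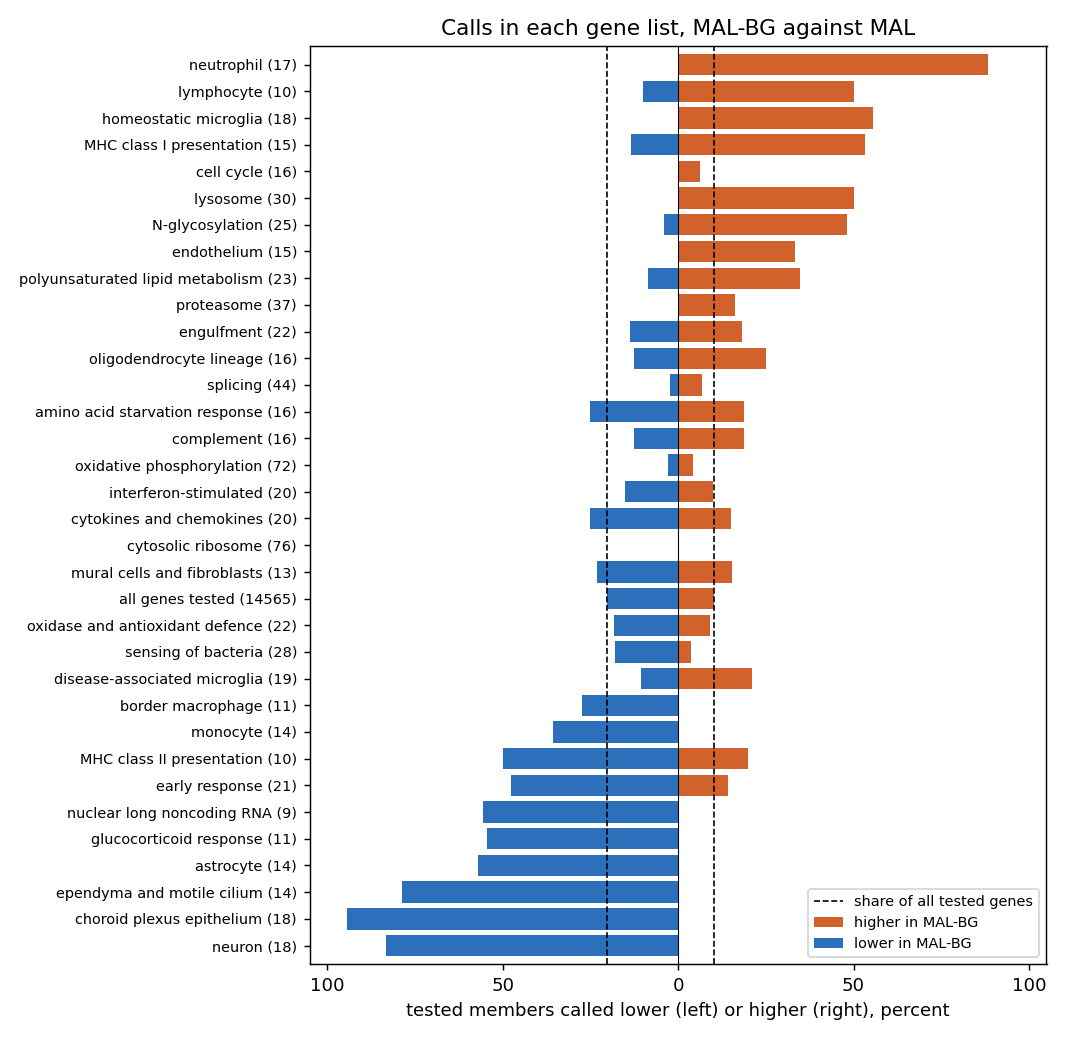
For each gene list, the percent of its tested members (number in parentheses) called lower (left) and higher (right) in MAL-BG than in MAL, ordered by median log2 fold change. Dashed lines mark the 20.2% lower and 10.2% higher of all 14565 genes tested. Among lists with more than 1 tested gene, the markers of neurons, choroid plexus, and ependyma lie furthest to the left. Those of neutrophils lie furthest to the right.

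The 5 falls with the smallest p were those of Nfkbiz, Klf10, Cdkn1a, Kdm6b, and Nbeal1. Klf10, an early gene of transforming growth factor signaling, had 59.5, 46.5, 54.8, 64.2, and 65.0 CPM in MAL and 18.3 to 23.6 (median 20.9) CPM in MAL-BG (-1.47 ± 0.10, SE, adjusted p = 1.01e-06, groups apart). Cdkn1a, the cell cycle inhibitor p21, had 112, 118, 137, 154, and 141 CPM in MAL and 34.2 to 53.0 (median 41.2) CPM in MAL-BG (-1.63 ± 0.13, SE, adjusted p = 3.24e-06, groups apart). Kdm6b, a histone demethylase induced in activated macrophages, had 168, 135, 247, 167, and 301 CPM in MAL and 42.7 to 63.4 (median 48.4) CPM in MAL-BG (-2.01 ± 0.17, SE, adjusted p = 6.37e-06, groups apart). The choice required groups apart, and in these 3 genes the highest MAL-BG library stayed under the lowest MAL library by a wide margin. Nbeal1 codes for a large protein of the BEACH family (-2.18 ± 0.19, SE, adjusted p = 6.37e-06, groups apart).

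In the early response list, 10 of 21 fell and 3 rose, with a median of -0.67. Egr1, a zinc finger factor at the head of such responses, had 4023, 2889, 4119, 5864, and 2476 CPM in MAL and 709 to 2133 (median 1065) CPM in MAL-BG (-1.64 ± 0.28, SE, adjusted p = 0.000271, groups apart). Dusp1, a phosphatase that shuts off MAP kinases, had 1481, 1202, 1476, 1978, and 1035 CPM in MAL and 291 to 815 (median 686) CPM in MAL-BG (-1.22 ± 0.23, SE, adjusted p = 0.000647, groups apart). Both were lower in every MAL-BG library. Fos, part of the AP-1 factor, overlapped, with 3982, 3464, 4164, 5680.3, and 2611 CPM in MAL and 1150.5 to 2942 (median 2206) CPM in MAL-BG (-0.87 ± 0.21, SE, adjusted p = 0.00397, groups overlapping). The summed level of the list was highest in MAL library 4, and without that library 8 members fell. These genes are also set off by dissociation, and the part of the isolation in their levels was not tested.

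The members that rose were Jund and both copies of the heat shock gene Hspa1, and 1 of the 3 remained when any of MAL libraries 1, 2, 3, or 5 was left out. Jund (0.85 ± 0.29, SE, adjusted p = 0.0277, groups overlapping), a partner of Fos, lay at 1682 to 3205 CPM in MAL and 2132 to 7872 CPM in MAL-BG, where library 2 was the highest, and it lost its call in 5 of the 16 fits that left out 1 library, those without MAL library 1, 2, 3, or 5 or MAL-BG library 2. Hspa1b, a chaperone gene of protein stress, lay at 113 to 229.6 CPM in MAL and 169 to 996 CPM in MAL-BG (1.44 ± 0.45, SE, adjusted p = 0.0173, groups overlapping), and shares nearly all of its sequence with Hspa1a, so the split of reads between them is uncertain.

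Genes induced by glucocorticoids, the stress steroids, fell in 6 of 11 cases and rose in 0, with a median of -1.07. Per1 (on chromosome 11 from 69095108 to 69109965), a clock gene with direct glucocorticoid control, had 259, 209.8, 364, 321, and 312 CPM in MAL and 37.1 to 101.3 (median 55.8) CPM in MAL-BG (-2.27 ± 0.21, SE, adjusted p = 6.37e-06, groups apart). Mt2, a metallothionein, had 43.3, 43.6, 57.8, 73.2, and 53.8 CPM in MAL and 10.5 to 27.1 (median 14.5) CPM in MAL-BG (-1.64 ± 0.24, SE, adjusted p = 8.92e-05, groups apart). Its neighbour Mt1 changed by -1.09 and the leucine zipper gene Tsc22d3 by -1.07. Ddit4, an inhibitor of mTOR that is also induced by steroids and by lack of nutrients, fell from 68.9, 55.1, 98.9, 38.8, and 45.9 CPM in MAL to 17.2 to 32.9 (median 26.6) CPM in MAL-BG (-1.21 ± 0.21, SE, adjusted p = 0.000343, groups apart). The time of day and the interval between the last gavage and dissection were not given in the sources used here, so their part was not tested.

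Many rapidly induced promoters carry the cyclic AMP response element, TGACGTCA, or its shorter core TGACG. RefSeq promoters on GRCm38.p6, 250 bases before to 50 bases after the start, were at hand for 18 of the 21 early response genes. TGACG stood on either strand in 9 of these 18, against 23.05% of all 27025 genes with a promoter and 33.8% of the 11034 tested ones. It was in 7 of the 8 early response genes that fell and in 2 of the 10 others. The full element, which contains the core on both strands, was in 2 of the 18 (2.03% of all genes with a promoter and 3.41% of the tested ones). In the glucocorticoid list the core was in 6 of 10, 3 of 5 that fell and 3 of 5 others. Over all genes that fell, 29.6% of 2178 promoters had the core, no larger share than among all tested. The stretches around the core nearest the start are shown for the 7 early response genes and the 3 glucocorticoid genes that fell and held it, upstream of the start, in the direction of the gene, with each core (TGACG, or CGTCA where it lies on the opposite strand) in capitals.
Fos: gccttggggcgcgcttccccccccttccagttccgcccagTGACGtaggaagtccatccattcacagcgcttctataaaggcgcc
Fosb: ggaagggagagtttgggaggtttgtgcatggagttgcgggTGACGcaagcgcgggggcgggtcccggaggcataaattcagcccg
Junb: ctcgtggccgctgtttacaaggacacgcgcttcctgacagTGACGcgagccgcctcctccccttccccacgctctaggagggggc
Atf3: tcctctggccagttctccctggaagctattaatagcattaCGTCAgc
Dusp1: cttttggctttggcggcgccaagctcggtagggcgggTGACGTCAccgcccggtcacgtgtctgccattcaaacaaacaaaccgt
Nr4a1: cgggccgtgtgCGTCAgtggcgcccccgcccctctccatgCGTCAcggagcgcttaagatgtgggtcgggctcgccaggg
Btg2: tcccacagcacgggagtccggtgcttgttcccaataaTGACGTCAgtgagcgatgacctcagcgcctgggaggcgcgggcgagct
Per1: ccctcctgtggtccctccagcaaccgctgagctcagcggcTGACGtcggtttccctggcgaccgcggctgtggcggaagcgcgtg
Mt1: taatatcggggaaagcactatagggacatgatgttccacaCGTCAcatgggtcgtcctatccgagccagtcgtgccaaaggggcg
Tsc22d3: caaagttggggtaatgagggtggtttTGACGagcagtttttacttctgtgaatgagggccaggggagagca
These lie on GRCm38.p6 at chr12:85473784-85473868 (plus strand), chr7:19310061-19310145 (minus), chr8:84978810-84978894 (minus), chr1:191183334-191183380 (minus), chr17:26508568-26508652 (minus), chr15:101266766-101266845 (plus), chr1:134079274-134079358 (minus), chr11:69099980-69100064 (plus), chr8:94178972-94179056 (plus), and chrX:140548751-140548821 (minus). Dusp1 and Btg2 hold the full palindrome, Nr4a1 holds 2 cores in the stretch, and the others 1. The cores nearest the start began 66, 60, 106, 7, 140, 40, 163, 132, 77, and 224 bases before it, in the same order. The log2 fold changes of these genes were -0.87, -1.36, -0.75, -1.16, -1.22, -0.98, -0.72, -2.27, -1.09, and -1.07. Junb lost its call in 9 of the 16 fits that left out 1 library, without MAL library 1, 3, or 4 or MAL-BG library 1, 3, 4, 5, 6, or 7 (adjusted p up to 0.125), and Btg2 in 2, without MAL library 4 or MAL-BG library 1. A match of these letters is a description of the promoter and says nothing of binding in these cells.

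Among the cell type lists, that of neurons had the lowest median. Of 18 neuronal markers tested, 15 fell and 0 rose, with a median of -2.51, and their summed level was 186 to 596 CPM in MAL (median 327) and 55.1 to 118 CPM in MAL-BG (median 68.9). Camk2a, the kinase of excitatory synapses, had 123, 194, 99.9, 53.7, and 247 CPM in MAL and 6.13 to 12.03 (median 8.72) CPM in MAL-BG (-4.11 ± 0.38, SE, adjusted p = 6.37e-06, groups apart). Snap25, a protein of transmitter release, had 35.5, 40.4, 44.7, 32.5, and 68.8 CPM in MAL and 1.46 to 9.03 (median 3.86) CPM in MAL-BG (-3.24 ± 0.43, SE, adjusted p = 4.65e-05, groups apart). The loss was not shared by all neuronal messages. Stmn2, a regulator of microtubules in growing axons, had 10.2, 13.7, 15.2, 6.61, and 19.1 CPM in MAL and 7.37 to 39.4 (median 18.0) CPM in MAL-BG (0.56 ± 0.41, SE, adjusted p = 0.279, groups overlapping).

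The largest falls among fully separated genes above 5 CPM were of genes known from neurons. Among them were Ddn, Dlgap3, Shank1, Hpcal4, Fbxl16, Slc17a7, Hpca, Adcy1, and Nrsn1, with log2 fold changes from -5.35 to -4.29. Ddn, or dendrin, whose message is carried into dendrites, had 44.0, 96.6, 61.9, 30.2, and 131 CPM in MAL and 0.773 to 3.74 (median 1.19) CPM in MAL-BG (-5.35 ± 0.52, SE, adjusted p = 6.42e-06, groups apart). Shank1, a scaffold of the postsynaptic density, had 14.8, 21.9, 14.5, 5.48, and 24.2 CPM in MAL and 0.153 to 1.06 (median 0.445) CPM in MAL-BG (-5.04 ± 0.48, SE, adjusted p = 6.37e-06, groups apart). Dlgap3, its binding partner at the synapse, had 15.2, 27.1, 17.7, 7.41, and 26.4 CPM in MAL and 0.0542 to 1.37 (median 0.354) CPM in MAL-BG (-5.25 ± 0.58, SE, adjusted p = 1.36e-05, groups apart). Slc17a7, the glutamate transporter of synaptic vesicles, had 10.5, 20.4, 6.45, 5.16, and 18.1 CPM in MAL and 0.238 to 1.07 (median 0.519) CPM in MAL-BG (-4.49 ± 0.48, SE, adjusted p = 1.14e-05, groups apart). MAL library 4 was the lowest MAL library in each of these 4, and it still lay well above MAL-BG. Hpcal4 and Hpca, calcium sensors, changed by -4.99 and -4.46, Fbxl16, an F-box protein, by -4.72, Adcy1, an adenylyl cyclase, by -4.42, and Nrsn1, a vesicle protein, by -4.29.

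**Figure D4:**
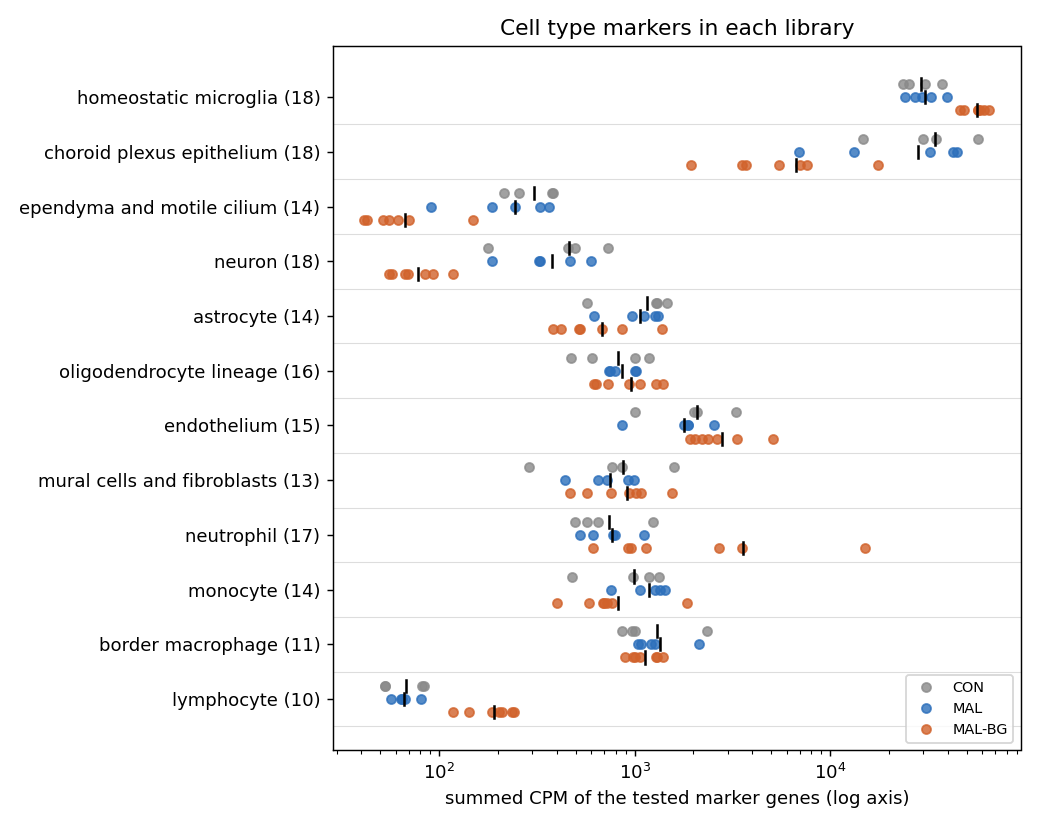
Summed CPM of the tested markers of each cell type (number of genes in parentheses) in each library on a log axis, 1 point per library in CON, MAL, and MAL-BG, with a black tick at the group mean. Homeostatic microglia and lymphocyte sums of all 7 MAL-BG libraries lie above the MAL range and neuronal sums below it, MAL-BG library 5 stands apart in neutrophil markers, and MAL-BG library 3 has the highest choroid plexus sum of its group.

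Epithelium of the ventricles fell as well. Of 18 choroid plexus markers, 17 fell and 0 rose, with a median of -2.15, and of 14 ependymal and cilium genes, 11 fell and 0 rose, with a median of -1.71. Ttr, transthyretin, the hormone carrier that choroid plexus secretes into the cerebrospinal fluid, had 8928, 30260.0, 29293, 4622, and 22166 CPM in MAL and 1405 to 12402 (median 3909) CPM in MAL-BG. The groups overlapped, with MAL library 4 low and MAL-BG library 3 high, and the change was -2.01 ± 0.52 (SE, adjusted p = 0.00559). Clic6, a chloride channel family member of the same epithelium, had 149, 474, 403, 66.3, and 298 CPM in MAL and 9.96 to 104 (median 32.9) CPM in MAL-BG (-2.76 ± 0.50, SE, adjusted p = 0.000432, groups overlapping). Foxj1, the master factor of motile cilia, had 37.8, 99.4, 84.1, 19.1, and 61.4 CPM in MAL and 8.96 to 31.7 (median 10.8) CPM in MAL-BG (-2.16 ± 0.38, SE, adjusted p = 0.00037, groups overlapping). With MAL library 4 and MAL-BG libraries 3 and 5 left out together, 18 of 18 choroid plexus markers fell (median -2.73) Ttr changed by -2.64, and Clic6 by -3.37.

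Glia of other kinds were split. Among astrocyte markers 8 of 14 fell and 0 rose (median -1.30), led by Slc1a2, the main glutamate transporter, at 143, 159, 132, 69.5, and 172 CPM in MAL and 11.99 to 49.9 (median 14.6) CPM in MAL-BG (-2.50 ± 0.41, SE, adjusted p = 0.000222, groups apart). In the oligodendrocyte lineage, 4 of 16 rose and 2 fell (median 0.21). Those that rose were genes of mature, myelinating cells, but other such genes were among the 10 of 16 not called. Mag, a myelin adhesion protein, had 36.8, 30.0, 35.6, 47.5, and 34.3 CPM in MAL and 59.6 to 89.6 (median 70.3) CPM in MAL-BG (0.98 ± 0.16, SE, adjusted p = 0.000244, groups apart). The precursor marker Pdgfra fell from 7.75, 12.6, 12.1, 6.53, and 9.08 CPM in MAL to 1.78 to 6.41 (median 3.34) CPM in MAL-BG (-1.35 ± 0.34, SE, adjusted p = 0.00423, groups apart). Without MAL library 1, 2 members rose and 1 fell.

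Vessel genes were also split. In the endothelial list 5 of 15 rose and 0 fell (median 0.51). Cldn5, the claudin of tight junctions at the blood-brain barrier, had 235, 210.3, 279.8, 109.8, and 184 CPM in MAL and 286 to 1491 (median 637) CPM in MAL-BG (1.90 ± 0.38, SE, adjusted p = 0.000994, groups apart). With MAL library 4 and MAL-BG libraries 3 and 5 left out together, 2 members rose and 1 fell. Among genes of mural cells and fibroblasts, 2 of 13 rose and 3 fell (5 without MAL-BG library 5, and 0 higher and 5 lower with the 3 libraries left out). Acta2, the actin of smooth muscle, had 76.0, 174, 162, 67.3, and 102 CPM in MAL and 158 to 456 (median 248) CPM in MAL-BG (1.27 ± 0.40, SE, adjusted p = 0.0175, groups overlapping). Abcc9, a channel subunit of pericytes, had 42.8, 26.2, 14.4, 7.57, and 13.9 CPM in MAL and 2.199 to 7.86 (median 3.58) CPM in MAL-BG (-2.21 ± 0.42, SE, adjusted p = 0.000623, groups overlapping). Mgp, a calcification inhibitor of vascular and stromal cells, rose from 32.9, 45.1, 53.6, 27.1, and 48.1 CPM in MAL to 56.5 to 285 (median 149) CPM in MAL-BG (1.89 ± 0.49, SE, adjusted p = 0.00576, groups apart). The call of Acta2 was lost with the 3 libraries left out (0.98, adjusted p = 0.0789).

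Among blood cells, neutrophil genes had the largest rises and the widest spread. Of 17 tested, 15 rose and 0 fell, with a median of 3.998 that was 2.71 without MAL-BG library 5, and the summed level was 524 to 1113 CPM in MAL (median 775) and 613 to 15147 CPM in MAL-BG (median 1138). The filter can be passed through MAL-BG libraries alone, so members low in MAL could enter the list by being high in MAL-BG. With a filter of at least 1 count in any library, 15 of 18 rose and 0 fell (median 3.99). S100a9 (on chromosome 3 from 90692630 to 90695721), a chain of the antibacterial protein calprotectin, had 46.6, 83.8, 22.8, 136, and 19.2 CPM in MAL and 221, 639, 113, 198, 3831, 72.0, and 951 CPM in MAL-BG libraries 1 to 7 (3.80 ± 0.95, SE, adjusted p = 0.00416, groups overlapping). S100a8, its partner, followed the same order of libraries at both ends (4.08 ± 0.98, SE, adjusted p = 0.00325, groups overlapping). MAL-BG library 5 carried most of the signal, libraries 2 and 7 some, and libraries 3 and 6 lay within the MAL range of S100a9. Mpo, the myeloperoxidase of immature granulocytes, was at most 0.511 CPM in MAL (14 counts in all 5 libraries) and at 0.0594 to 506 CPM in MAL-BG, with a fitted change of 8.42 that fell to 5.36 without MAL-BG library 5. The changes of S100a9 and S100a8 without that library were 2.55 and 2.67, and both remained DEGs.

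The remaining rises of the leading 10 were partly of the same kind. Mmp9, a gelatinase of neutrophil granules, had 3.49, 3.06, 2.67, 10.4, and 2.47 CPM in MAL, a secreted glycoprotein, Lrg1, 1.53, 1.27, 1.29, 0.967, and 0.478 CPM, and the antiprotease Slpi 3.92, 4.77, 3.87, 5.24, and 4.22 CPM, and in MAL-BG their ranges were 13.5 to 242, 2.38 to 51.9, and 5.53 to 66.0 CPM. Clec4d, a C-type lectin of myeloid cells, had 1.19, 2.61, 2.32, 3.71, and 2.15 CPM in MAL and 4.34 to 19.4 (median 6.37) CPM in MAL-BG. In all 4, library 5 was the highest MAL-BG library, and their log2 fold changes were 3.95, 3.82, 2.53, and 1.80. Without library 5 those of Mmp9 and Lrg1 were 3.14 and 3.10, and without MAL library 4 that of Mmp9 was 4.55. Unc45b, a chaperone of muscle myosin, rose at low levels (1.66 ± 0.33, SE, adjusted p = 0.000867, groups apart).

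Of 5 tested members of the lymphocyte list that natural killer cells express, Gzma, Nkg7, Klrb1c, and Ncr1 rose, and Gzmb was not called (0.64 ± 0.26, SE, adjusted p = 0.052, groups overlapping) but was called higher by DESeq2 and in 4 of the 16 fits that left out 1 library, without CON library 4, MAL library 3, or MAL-BG library 2 or 3. Gzma (on chromosome 13 from 113093824 to 113100981), a granzyme of cytotoxic granules, had 19.2, 21.4, 20.99, 15.9, and 15.1 CPM in MAL and 46.4 to 129 (median 102) CPM in MAL-BG (2.36 ± 0.26, SE, adjusted p = 1.33e-05, groups apart). Nkg7, a granule protein of the same cells, had 6.73, 4.55, 7.31, 4.92, and 5.18 CPM in MAL and 13.3 to 29.6 (median 23.6) CPM in MAL-BG (2.03 ± 0.25, SE, adjusted p = 2.99e-05, groups apart). Klrb1c, the receptor NK1.1, had 3.66, 4.40, 4.47, 3.22, and 2.47 CPM in MAL and 6.13 to 17.1 (median 12.9) CPM in MAL-BG (1.73 ± 0.33, SE, adjusted p = 0.000692, groups apart). These 3 were among the 10 largest rises, chosen from genes with groups apart, so no MAL-BG library reached down to the MAL range. Ncr1, an activating receptor, changed by 1.22 ± 0.25 (SE, adjusted p = 0.00123, groups apart). Library 5, the highest in neutrophil genes, was not the highest in these except for Nkg7. Genes of the T cell receptor complex (Cd3d, Cd3e, and Cd3g) did not pass the filter on low counts. The lymphocyte list as a whole had 5 of 10 higher and 1 lower, 4 with a change below 0, and a summed level of 56.5 to 80.3 CPM in MAL (median 64.4) and 118 to 242 CPM in MAL-BG (median 201). Among B cell genes, Cd79b rose (1.11 ± 0.21, SE, adjusted p = 0.000565, groups apart).

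Of 14 monocyte genes tested, 5 fell and 0 rose (median -0.47), and without MAL-BG library 5, 7 fell (median -0.71). In 5 members the change was above 0, up to 1.70, and none of these was called. Ace, the angiotensin-converting enzyme of patrolling monocytes and also of choroid plexus and vessels, had 309, 512, 505, 160.4, and 387 CPM in MAL and 51.4 to 115 (median 69.8) CPM in MAL-BG (-2.21 ± 0.29, SE, adjusted p = 4.00e-05, groups apart). Itgal, the alpha chain of the leukocyte integrin LFA-1, had 183, 159, 140.2, 104, and 132 CPM in MAL and 41.1 to 75.5 (median 58.2) CPM in MAL-BG (-1.24 ± 0.22, SE, adjusted p = 0.000393, groups apart). Vcan and Ccr2, genes of classical monocytes, changed by -2.25 and -1.02. The summed level of the list overlapped between the groups, with MAL-BG library 5 the highest of all. Of the 7 genes of the erythroid list 1 was tested. It rose at a low level, from 0.0851 to 1.29 CPM in MAL to 1.53 to 4.62 CPM in MAL-BG.

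Metabolic genes changed in parts. Of 23 genes that handle polyunsaturated lipids, 8 rose and 2 fell, with a median of 0.43. Scaled to the homeostatic microglia markers, 0 were higher and 8 lower (median -0.42). Pla2g15, a lysosomal phospholipase, had 382, 332, 298, 499, and 340.0 CPM in MAL and 597 to 930.2 (median 819) CPM in MAL-BG (1.09 ± 0.19, SE, adjusted p = 0.000352, groups apart). Lpcat3, which puts polyunsaturated chains into phospholipids, had 92.4, 80.0, 73.6, 102, and 90.7 CPM in MAL and 117 to 197 (median 148) CPM in MAL-BG (0.80 ± 0.14, SE, adjusted p = 0.000347, groups apart). The others that rose were Lpcat2, Elovl1, and 4 genes of eicosanoid synthesis, Ltc4s by 1.25, Tbxas1 by 0.94, Alox5ap by 0.76, and Ptgs1 by 0.77. Other members of the list from that synthesis, such as Ptgs2 and Hpgds, were not called. The desaturase Fads2, which makes such chains, fell from 20.3, 37.7, 41.5, 10.2, and 22.2 CPM in MAL to 1.69 to 5.71 (median 2.80) CPM in MAL-BG (-3.02 ± 0.36, SE, adjusted p = 2.36e-05, groups apart). The other that fell was the elongase Elovl2, at under 2 CPM (-1.09 ± 0.40, SE, adjusted p = 0.035, groups overlapping), with a call lost in 7 of the 16 fits that left out 1 library, without MAL library 2, 3, or 5 or MAL-BG library 1, 4, 6, or 7.

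In the list of oxidase and antioxidant genes, 2 of 22 rose and 4 fell (3 and 1 at an equal mean log2 CPM). Of all genes 10.2% rose and 20.2% fell. Cyba, the membrane subunit of the NADPH oxidase, had 249, 243, 200.2, 340.2, and 227 CPM in MAL and 338 to 667 (median 538) CPM in MAL-BG (1.07 ± 0.18, SE, adjusted p = 0.00025, groups overlapping). Nqo1, a quinone reductase under control of Nrf2, fell at low levels (-1.92 ± 0.44, SE, adjusted p = 0.00227, groups overlapping), and by -2.60 with the 3 libraries left out. Of 16 genes of the response to amino acid starvation, 3 rose and 4 fell (6 and 2 at an equal mean log2 CPM, 1 and 4 by library totals). Slc7a5, the transporter of large neutral amino acids, had 137, 107, 139.8, 90.2, and 101.3 CPM in MAL and 161 to 218 (median 174) CPM in MAL-BG (0.68 ± 0.13, SE, adjusted p = 0.000656, groups apart). The mitochondrial folate enzyme Mthfd2 rose too (0.93), while the stress genes Ddit3 and Sesn2 fell (-0.93 and -1.12).

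Few housekeeping genes were called on the TMM scale. Of 76 genes of the cytosolic ribosome, 0 rose and 0 fell by edgeR's test with the fold threshold, 15 had an unadjusted p under 0.05, 7 an adjusted p under 0.05, and the median was 0.03. DESeq2 called 1 lower, and with the 3 libraries left out 4 were higher. Rplp1, the most abundant of them, had 644 to 1185 CPM in MAL and 651 to 1406 CPM in MAL-BG (0.30 ± 0.19, SE, adjusted p = 0.202, groups overlapping). Oxidative phosphorylation gave 3 higher and 2 lower of 72, splicing 3 higher and 1 lower of 44, and the cell cycle 1 higher of 16 (median 0.57). Single libraries moved these small counts. In oxidative phosphorylation 1 was higher without MAL library 1 or MAL-BG library 3, 5 were higher without MAL-BG library 6, 4 were lower without MAL library 4 or MAL-BG library 5, and 4 were higher and 7 lower with the 3 libraries left out. In splicing 6 were higher without MAL-BG library 1 or 6, and 5 without MAL library 4. In the cell cycle 3 were higher without MAL library 4 or MAL-BG library 2 or 3, 2 without MAL-BG library 1, 4, 6, or 7, and 0 without MAL library 1, 2, or 3 or MAL-BG library 5, where the median was 0.10. The proteasome had 6 of 37 higher and 0 lower (median 0.34), with Psmd7, a subunit of its lid, at 56.6, 60.6, 62.8, 60.5, and 54.1 CPM in MAL and 80.6 to 111 (median 96.8) CPM in MAL-BG (0.69 ± 0.10, SE, adjusted p = 7.93e-05, groups apart). With libraries at an equal mean log2 CPM, 9 ribosomal, 14 oxidative phosphorylation, and 20 proteasome genes were higher, and scaled to the microglial markers 64, 59, and 18 were lower. With the offsets for length and GC content, 5 ribosomal genes and 14 of oxidative phosphorylation were lower and 0 of either higher, and 2 proteasome genes were higher (median 0.084). By library totals 5 genes of oxidative phosphorylation were lower and 0 higher, 3 splicing genes were lower and 3 higher, and 3 proteasome genes were higher.

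DEGs differed in the structure of their genes by direction. Genes that rose were compact, with a median genomic span of 13046 bases against 23649 for all tested genes, and genes that fell were long, with 38850 bases. The longest transcript had a median length of 2412 bases in genes that rose, 4147.5 in genes that fell, and 3387 in all, and the number of exons was 7, 11, and 9. With genes split by span into 5 equal bins, 16.9% rose and 13.7% fell in the shortest bin, and 4.69% rose and 33.9% fell in the longest. GC content of the transcripts was 52.2% in genes that rose and 49.8% in those that fell and in all. Neuronal genes tend to be long, and the part of cell composition in this pattern was not tested. With offsets for transcript length and GC content in each library, 1384 genes were higher and 2828 lower.

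**Figure D5:**
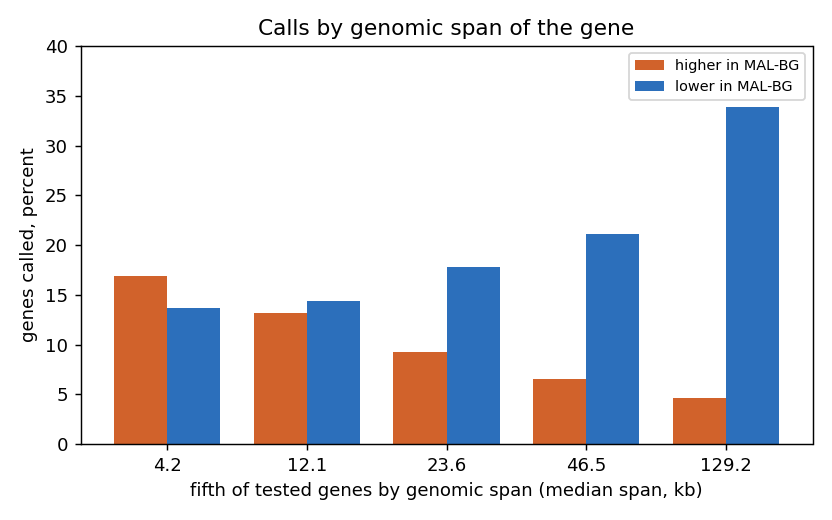
Percent of genes called higher and lower in MAL-BG than in MAL in each of 5 equal bins of the tested genes by genomic span (RefSeq), with the median span of each bin in kb on the horizontal axis. Rises fall from 16.9% to 4.69% and falls climb from 13.7% to 33.9% as genes get longer.

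Long noncoding RNAs that stay in the nucleus fell with the long genes. Of 9 tested, 5 fell and 0 rose, with a median of -0.99. Xist, which coats the inactive X chromosome of female cells, had 1479.8, 978, 1271, 1039.5, and 1537 CPM in MAL and 374 to 917 (median 605) CPM in MAL-BG (-0.99 ± 0.20, SE, adjusted p = 0.00122, groups apart). Neat1, the scaffold of nuclear paraspeckles, had 738, 827, 894, 925, and 931 CPM in MAL and 399.7 to 681 (median 579) CPM in MAL-BG (-0.66 ± 0.15, SE, adjusted p = 0.0027, groups apart). Xist and Neat1 were lower in all 7 libraries. With offsets for transcript length and GC content, 1 member rose and 1 fell, Xist was not called, and the change of Neat1 was 0.07. Leaving out MAL-BG library 1 left 2 members lower and ended the call of Neat1 by size (-0.57), and leaving out MAL library 5 or MAL-BG library 2 or 5 left 3.

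The CON libraries give the level on standard chow, and 0 genes were DEGs between MAL and CON by edgeR's test or by DESeq2 (212 at an unadjusted p under 0.05 in edgeR). Trem2 had 756 ± 190.4 CPM (SD, n = 4) in CON, Spcs2 139 ± 12.9 CPM, Nfkbiz 1022 ± 195 CPM, Per1 372 ± 107 CPM, and Camk2a 162 ± 98.6 CPM, each outside the range of the MAL-BG libraries. Il1a stood higher in CON, at 782 ± 115 CPM, and Ciita lower, at 9.12 ± 3.01 CPM, than the MAL medians of 372 and 15.1 CPM. Against CON, which shares the MAL-BG libraries with the comparison above, log2 fold changes were 1.29 for Trem2, -2.62 for Nfkbiz, -2.62 for Per1, -4.28 for Camk2a, and 2.04 for Gzma. Cd74 and H2-Aa, called lower against MAL, were not called against CON (-0.16 and -0.53), and the difference between the 2 contrasts is that between MAL and CON, in which neither gene was called.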

How the data were processed

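Poly(A) RNA of CD11b+ brain cells was sequenced by the authors as paired reads from stranded libraries, aligned with STAR to GRCm38 (mm10), and counted per gene with HTSeq. The counting mode, the strand setting, and the annotation are not given in the sources used here. The deposited values are whole-number counts per gene, not normalized, 1 column per library, and each column was placed in CON (4), MAL (5), or MAL-BG (7) by its name. The authors tested with DESeq2 and a batch term. No source used here names a library's batch, so none was fitted, and the part of batch in the group differences was not tested.

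From these counts, TMM factors, CPM, and a quasi-likelihood fit over the 3 groups were computed with edgeR 4.0.16 (R 4.3.3, limma 3.58.1), after a filter of more than 10 counts in at least 4 libraries. p-values were Benjamini-Hochberg adjusted over all 14565 genes. The procedure was tested on simulated data, and no conclusion on the split between rises and falls is drawn from that test. Depth of 10864121 to 18705202 counts makes counting error small except for genes of few counts. No 2 libraries of a group agreed within sampling noise. Gene positions, spans, and promoters came from RefSeq (GRCm38.p6), and transcript lengths, exons, and GC content from GENCODE vM21 (GRCm38). DESeq2 1.42.0, other scalings, filters, and fold thresholds, offsets for length and GC content, thinning, and leaving out each library were alternatives.

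The members, the 35 gene lists, and the tests were chosen with earlier results of these data known. Genes were named by rule: among DEGs of at least 5 CPM with groups apart, the 10 largest changes and the 5 smallest p in each direction, and in each list the 3 most abundant members and the DEG with the smallest p in each direction. Abundant members that did not pass are mostly given in counts, and some named genes are not reported here. Other genes named with values, and the further list of protein entry into the endoplasmic reticulum, were chosen after their values were seen.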

Additional observations from a re-analysis of the deposited data

Results flagged for a closer look

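By Dixon's test, 26 of 320 groups of values tested had 1 library far from the others, where chance gives about 1 in 20 (16). Each value below is CPM. MAL-BG library 5 stood highest for neutrophil markers summed (15147), monocyte markers summed (1863), cell cycle genes summed (543), S100a9 (3831), S100a8 (2669.9), Mpo (506), Mmp9 (242), Lrg1 (51.9), Clec4d (19.4), and Lilrb4a (18.3). MAL-BG library 3 stood highest for choroid plexus markers summed (17667), ependymal markers summed (148), Ttr (12402), Clic6 (104), Foxj1 (31.7), and Stmn2 (39.4). MAL-BG library 2 stood highest for Jund (7872), Per1 (101.3), and Csf1 (67.8). MAL library 4 stood apart from the other 4 MAL libraries for border macrophage markers summed (2131), Mmp9 (10.4), Bst2 (161), Cxcl2 (149.6), Ltc4s (323), and Mt1 (323). MAL-BG library 6 stood apart for genes of oxidative phosphorylation summed (5047). Without MAL library 4 the log2 fold changes of Bst2, Cxcl2, Ltc4s, and Mt1 were 1.09, -1.62, 1.41, and -0.86. Without MAL-BG library 2 those of Jund, Per1, and Csf1 were 0.62 (not called), -2.39, and -0.99. Without MAL-BG library 5 those of Clec4d and Lilrb4a were 1.43 and -2.11, and without MAL-BG library 3 those of Ttr, Clic6, Foxj1, and Stmn2 were -2.46, -3.18, -2.53, and 0.27 (not called). Choroid plexus and ependymal lists then had 18 of 18 and 14 of 14 members lower.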

How the results depend on the processing

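No paired analysis was possible because the running numbers of the columns match no sample title and tie no animals together across groups. With libraries scaled by totals only, 872 genes were higher. At an equal mean log2 CPM 3501 were higher, and 3261 with offsets for length and GC content as well. Scaled to the homeostatic microglia markers, 9954 genes were DEGs (51 higher, 9903 lower), 10538 in DEGs MAL-BG versus CON, and 475 members of the lists. Without a fold threshold 2940 were higher. Above an absolute log2 fold change of 1, 2522 were DEGs (371 higher), 2838 against CON, and 147 members of the lists. Leaving out 1 library gave 3809 (without MAL library 3) to 4877 (without MAL library 4) DEGs, 1239 to 1763 higher and 2453 to 3152 lower.

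Scaled to the microglia markers, these log2 fold changes turned: Tmco1 -0.019, Emc3 -0.062, Csf1r -0.55, P2ry12 -0.59, Stmn2 -0.34, Jund -0.023, Cd9 -0.086, Tlr3 -0.064, Tlr4 -0.81, B2m -0.63, Cst3 -0.075, Glb1 -0.13, Lpcat3 -0.082, Slc7a5 -0.24, Rplp1 -0.56, Psmd7 -0.20, Alox5ap -0.12, H2-DMa -0.13, H2-Oa -0.025, Ptgs1 -0.092, and Gzmb -0.31. With the offsets B2m turned to -0.12, Rplp1 to -0.027, and Neat1 to 0.075 (0.32 at an equal mean). Apoe, not called, turned to 0.070 at an equal mean, to 0.033 without the 3 libraries, and ranged from -0.30 to 0.0044 when 1 library was left out. Tlr4, not called, turned to -0.058 with library totals and ranged from -0.11 to 0.18 when 1 library was left out. The cause was not tested. Of 118 named DEGs, the microglia scaling ended the call of 29 and turned 14, and an absolute log2 fold change above 1 ended 36. The equal mean ended the call of Fos, Cd14, Stat2, Cd74, Neat1, Btg2, Cd36, Cfb, Junb, Elovl2, and Sesn2, library totals that of Ccl4, Slc7a5, and Psmd7, and the offsets that of Cd9, Ccl4, Bst2, Nlrc5, Cst3, Psmd7, Xist, Alox5ap, and H2-DMa. The offsets at an equal mean ended it for Stat2, Nlrc5, Cd74, Xist, Btg2, Ccr2, Cd36, Junb, Elovl2, and Sesn2. DESeq2, the other filters, 2 groups alone, and thinning changed the call of at most 2 each. At an equal mean, members called higher and lower were 24 and 0 for the lysosome, 13 and 1 for polyunsaturated lipids, 9 and 0 for endothelium, 12 and 0 for splicing, 7 and 0 for the cell cycle, 2 and 6 for the glucocorticoid list, 0 and 1 for border macrophages, and 0 and 2 for nuclear long noncoding RNAs (0 and 3 when thinned). Every MAL-BG library was deeper than every MAL library, and with every library thinned to the smallest total 4363 genes were DEGs. Genes at a few counts, Mpo above all, have folds that depth limits.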
